A study of Salmo salar with 16 samples.

Results

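LOC106605687 on chromosome 5 and LOC106577517 on chromosome 2 are 2 protein-coding genes that the annotation of the Atlantic salmon assembly ICSASG_v2 leaves uncharacterized. They are 2 of the 81574 genes in the count table and were chosen by their abundance in the liver and their place beside apolipoprotein genes, both known from earlier results of these data. Their liver levels are therefore given as a description, without a test. Messenger RNA was sequenced from liver, mid-brain, pituitary gland and ovary in 16 RNA-Seq libraries, with 4 replicates per tissue. The fish were sexually immature females, 3 years old, of a North American derived Atlantic salmon stock bred in Tasmania, and no treatment or genotype separates them. The study names 4 animals, so tissues of the same fish were compared, but the labels do not say which libraries share a fish. The p-values below treat the libraries as independent, although libraries with the same replicate number were the best match in 42 of 48 comparisons.

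Apolipoproteins are the proteins on the surface of lipoprotein particles, which carry cholesterol, triglycerides and phospholipids in the blood. In vertebrates the liver secretes most of them into plasma. Apolipoprotein A-I is the main protein of high-density lipoprotein, C-II activates lipoprotein lipase, and E is a ligand by which cells take up lipoprotein remnants. In mammals the genes for E, C-I and C-II lie side by side in a cluster. Salmonids descend from an ancestor whose whole genome was duplicated, and many of their genes exist as a pair of copies.

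Both genes have a similar exon layout. In ICSASG_v2, LOC106605687 spans 3134 bases of the minus strand, from 67841956 to 67845089 of chromosome 5. LOC106577517 spans 3001 bases of the plus strand, from 12357758 to 12360758 of chromosome 2. Each has 1 annotated transcript with 4 exons, and no other annotated gene overlaps either of them. The exons of LOC106605687 measure 109, 45, 229 and 536 bases, and those of LOC106577517 measure 152, 45, 229 and 541 bases. Exons 2 and 3 thus have the same length in both genes, and so has the coding part of exon 4, with 160 bases. The remaining bases of exon 4 are 3′ untranslated. The annotated genes differ at the start of the reading frame. In LOC106605687 exon 1 holds 94 coding bases, and the frame of 528 bases encodes 175 residues. In LOC106577517 exon 1 is annotated as untranslated, and the frame of 432 bases encodes 143 residues. The introns measure 279, 1177 and 759 bases in LOC106605687, against 257, 1076 and 701 bases in LOC106577517. A later RefSeq annotation, of the assembly Ssal_v3.1, names LOC106577517 apoa2, the symbol of apolipoprotein A-II. That symbol is given to 1 gene of 65341 there, and LOC106605687 remains without a name. In mammals apolipoprotein A-II is, beside A-I, a main protein of high-density lipoprotein. The sequences of the genes were not analysed here.

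Reads of LOC106605687 numbered 574412, 583908, 537476 and 546948 in liver replicates 1 to 4. In the brain there were 1717, 547, 1069 and 707 reads, in the pituitary gland 534, 472, 475 and 433, and in the ovary 1319, 1257, 1214 and 1194. Every liver library stood far above the 12 other libraries, and brain replicate 2 had few reads for the largest library of the series. LOC106577517 had 466664, 420860, 402279 and 432609 reads in the liver. It had 1337, 361, 724 and 512 reads in the brain, 302, 331, 375 and 288 in the pituitary gland, and 790, 768, 819 and 713 in the ovary. The order of the brain libraries was the same as for LOC106605687, with replicate 1 highest and replicate 2 lowest. In liver libraries of 20.6 M to 23.2 M counted reads, LOC106605687 took 2.54% ± 0.168 of all reads (mean ± SD, n = 4) and LOC106577517 1.96% ± 0.214. Together they took between 4.21% and 5.04% of the reads of a liver library, between 0.00175% and 0.0131% in the brain, between 0.00675% and 0.00799% in the ovary and between 0.00266% and 0.00323% in the pituitary gland.

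To compare tissues, counts were scaled to CPM, the counts of a gene relative to a common library size, after correction for composition with the TMM factors of edgeR. LOC106605687 was at 49344 ± 2976 CPM in the liver, 27.8 ± 18.2 CPM in the brain, 30.5 ± 1.27 CPM in the ovary and 17.7 ± 2.1 CPM in the pituitary gland (n = 4 per tissue, mean ± SD, here and for all levels below). LOC106577517 was at 37912 ± 3287 CPM in the liver, 20.4 ± 14.4 CPM in the brain, 18.9 ± 1.91 CPM in the ovary and 11.97 ± 1.39 CPM in the pituitary gland. The lowest liver library of each gene exceeded the highest of the 12 other libraries, as it did for 14.1% of all genes tested. In the edgeR fit the log2 fold changes of LOC106605687 were 10.79 for liver over brain (standard error 0.63), 11.44 for liver over pituitary gland (0.64) and 10.66 for liver over ovary (0.63). Those of LOC106577517 were 10.86 (0.65), 11.63 (0.67) and 10.97 (0.65). No test is given for these contrasts, because the genes were selected on their liver level. The folds depend on the scaling, since the composition factors were between 0.494 and 0.538 in the liver libraries. In mean CPM, the liver was 1773 times the brain for LOC106605687 and 1863 times for LOC106577517. In shares of all reads, without composition factors, the ratios were 666 and 698. Liver RNA in bulk does not tell the number of cells that express a gene from the amount of RNA per cell.

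**Figure D1:**
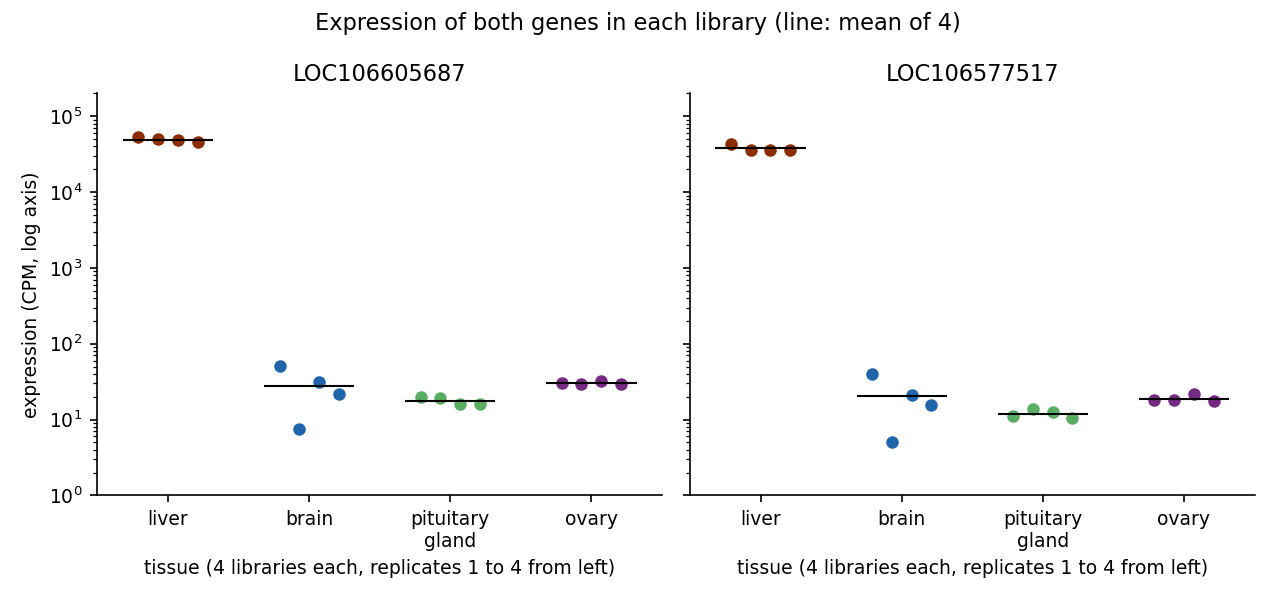
Expression of LOC106605687 (left) and LOC106577517 (right) in CPM on a log axis, with 1 point for each library and a line at the mean of each tissue. The 4 liver libraries lie at 45639 CPM or above for LOC106605687 and at 36099 CPM or above for LOC106577517, while all other libraries lie at 50.7 CPM or below, with the widest spread in the brain.

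Among the 3 other tissues, which the choice of the genes did not use, no difference passed. Calls between tissues needed a log2 fold change of 2 or more and a Benjamini-Hochberg adjusted p up to 0.001, from the quasi-likelihood test of edgeR over the 37043 genes tested. For brain over pituitary gland the log2 fold change of LOC106605687 was 0.65 (standard error 0.42, adjusted p = 0.205, edgeR), and that of LOC106577517 was 0.76 (0.44, adjusted p = 0.150, edgeR). In this pair 15.7% of all genes tested were called. For brain over ovary the values were -0.13 (0.42, adjusted p = 0.778, edgeR) for LOC106605687 and 0.10 (0.43, adjusted p = 0.832, edgeR) for LOC106577517, in a pair where 46.6% of all genes were called. For pituitary gland over ovary they were -0.78 (0.42, adjusted p = 0.101, edgeR) and -0.66 (0.43, adjusted p = 0.174, edgeR), against 41.2% of all genes called. In CPM the order was ovary, brain and pituitary gland for LOC106605687 and brain, ovary and pituitary gland for LOC106577517. None of these differences passed the thresholds. For both genes the 4 ovary libraries lay above the 4 pituitary gland libraries, and the brain libraries overlapped both. The share of all genes separated in this way was not counted, so nothing is read from it.

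In the brain, the low levels of both genes moved together with that of another liver gene. Serum albumin 1 (alb1), the main carrier protein of plasma, was at 36.0, 4.48, 21.3 and 13.8 CPM in brain replicates 1 to 4. In the same libraries LOC106605687 was at 50.7, 7.56, 31.6 and 21.5 CPM, and LOC106577517 at 39.5, 4.99, 21.4 and 15.6 CPM. All 3 genes were highest in replicate 1 and lowest in replicate 2. In the pituitary gland and the ovary, neither gene kept the order of the libraries seen for albumin. Counts of LOC106605687 per count of serum albumin 1 averaged 1.04 ± 0.146 in the liver, 1.54 ± 0.121 in the brain, 1.91 ± 0.396 in the pituitary gland and 1.51 ± 0.171 in the ovary. Those of LOC106577517 averaged 0.798 ± 0.123 in the liver, 1.09 ± 0.0578 in the brain, 1.33 ± 0.438 in the pituitary gland and 0.932 ± 0.0767 in the ovary. The ratio to albumin varied much less between tissues than the level itself. Any 2 genes with large liver folds of similar size would show this. A list of 17 liver markers (albumins, fibrinogen chains, prothrombin, transferrin and others) summed to between 185041 and 216152 CPM in the liver, between 29.7 and 374 CPM in the brain, between 117 and 129 CPM in the ovary and between 43.3 and 73.9 CPM in the pituitary gland. Of these, 15 passed the filter on low counts and all 15 were called higher in the liver than in each other tissue. Over all genes tested, 5.8% were called so. In the liver, 2 of the 17 had no read. Some of the 17, such as the albumins, stand in liver lists that the paper drew from these same libraries. The count of 15 was therefore in part known beforehand, and nothing is read from it. Summed in the liver, markers of other tissues were at 266 to 1010 CPM for 37 blood genes, 2215 to 2686 CPM for 73 exocrine pancreas genes, 93.5 to 123 CPM for 8 intestine genes, 112 to 132 CPM for 86 brain genes, 354 to 671 CPM for 8 pituitary genes and 20893 to 24116 CPM for 64 ovary genes, among them egg coat proteins that fish liver also makes. In the ovary itself the ovary list summed to 4017 to 4901 CPM. In the pituitary gland the intestine list summed to 181 to 229 CPM. Neither list is thus specific to the tissue it names. Of the 73 exocrine pancreas genes, 37 had no liver read. Of the 29 that were tested, 3 were called liver-specific. Whether the liver samples held pancreas tissue was not tested. The level of LOC106605687 was also set against the sum of the 17 liver markers. It was between 22.5% and 28.2% of this liver marker sum in the liver and between 23.4% and 36.9% in the ovary and pituitary gland. In brain replicates 1 to 4 it was 28.8%, 25.5%, 8.43% and 9.68%, and there the sum was highest in replicate 3, at 374 CPM. In the brain, the level of LOC106605687 was 0.0564% and that of LOC106577517 0.0537% of the liver level, against a median of 0.0540% among the 50 liver-specific genes highest in the liver. In the ovary they were at 0.0617% and 0.0499%, against a median of 0.0598%, and in the pituitary gland at 0.0359% and 0.0316%, against 0.0348%. The 50 genes were picked from the same data for high liver levels. Low percentages elsewhere therefore follow in part from the choice, and the likeness is only a description. Whether the reads outside the liver come from the tissue itself was not tested.

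**Figure D2:**
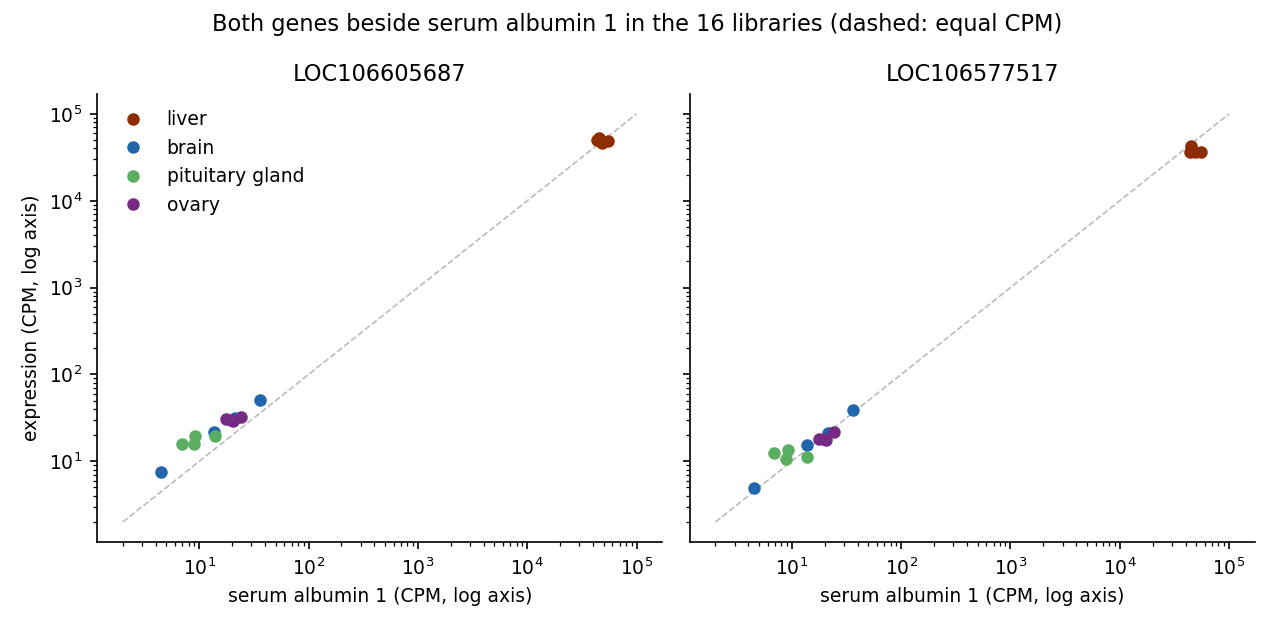
CPM of LOC106605687 (left) and LOC106577517 (right) against CPM of serum albumin 1, both on log axes, with 1 point for each of the 16 libraries and a dashed line where both are equal. The liver libraries form a group at the upper right, and the 12 other libraries lie near the line, from brain replicate 2 with 4.48 CPM of albumin to brain replicate 1 with 36.0 CPM.

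Genes can be compared with one another only per length, so counts were also given as FPKM, which divides CPM by the exon length in kilobases. On this scale LOC106605687 was at 53693 ± 3239 and LOC106577517 at 39205 ± 3399 FPKM in the liver, ranks 2 and 3 of the 39891 genes with a liver read. Rank 1 was LOC106577511, apolipoprotein C-I-like, at 65692 ± 8919 FPKM, which lies next to LOC106577517. Below them came an apolipoprotein A-I gene (LOC100136573) at 35360 ± 2801 FPKM, ribonuclease-like 3 (LOC106604501) at 29702 ± 2491 FPKM and serum albumin 1 at 21562 ± 2279 FPKM. The liver libraries of LOC106577517, from 37330 to 44300 FPKM, overlapped those of apolipoprotein A-I, from 31973 to 37919 FPKM. Those of LOC106605687, from 49662 to 57376 FPKM, overlapped neither those of LOC106577517 nor those of LOC106577511, from 58469 to 78134 FPKM. Of the 100 genes highest in liver FPKM, 14 are annotated as uncharacterized, these 2 included, and the next highest were LOC106574835 at 15636 ± 6329 FPKM, LOC106605688 at 6567 ± 921 FPKM and LOC106576749 at 6360 ± 631 FPKM. Between liver libraries both genes varied little. The coefficient of variation of CPM was 6.03% for LOC106605687 and 8.67% for LOC106577517, places 3 and 9 from the lowest among the 50 genes highest in liver FPKM, whose median was 14.8%.

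**Figure D3:**
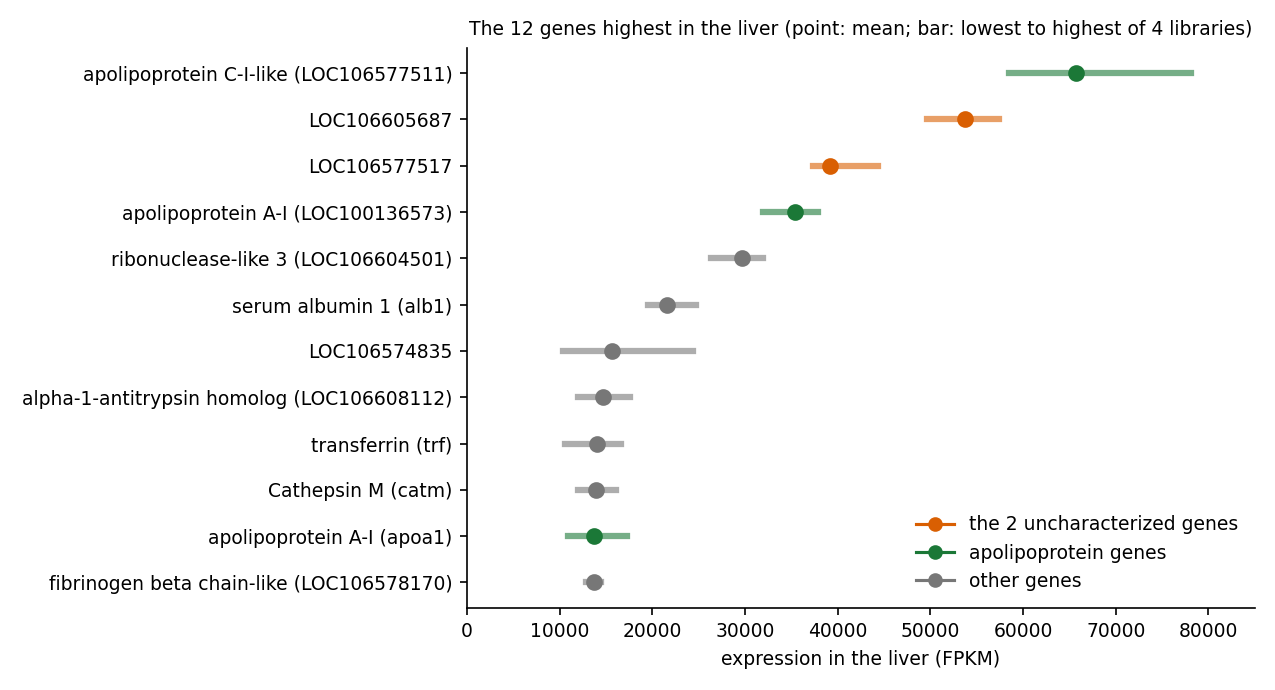
The 12 genes with the highest mean FPKM in the liver, in order from the top, with a point at the mean of 4 libraries and a bar from the lowest to the highest library on a linear axis. LOC106605687 (53693 FPKM) and LOC106577517 (39205 FPKM) follow apolipoprotein C-I-like (65692 FPKM) and stand above serum albumin 1 (21562 FPKM).

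LOC106605687 exceeded LOC106577517 in each of the 16 libraries. The FPKM ratio between them was 1.30, 1.46, 1.41 and 1.33 in liver replicates 1 to 4, with a mean of 1.37 ± 0.0742. It was 1.49 ± 0.109 in the brain, 1.57 ± 0.220 in the pituitary gland and 1.70 ± 0.0953 in the ovary. The ovary ratios, from 1.56 to 1.76, lay above all liver ratios, and the pituitary gland ratios, from 1.33 to 1.86, overlapped both. How many other pairs of genes separate in this way was not counted, so nothing is read from it. The counts are of uniquely mapped reads, and the share of reads lost because they match both genes could not be seen in the files. Over the 16 libraries, the Pearson correlation of log2(CPM + 1) between the 2 genes was 0.99967. With the 2 genes themselves left out, the gene most like each by this measure was ribonuclease-like 3. It had 0.99976 for LOC106605687 and 0.99933 for LOC106577517. Next came LOC106576198, an inter-alpha-trypsin inhibitor heavy chain H2-like gene, with 0.99934 and 0.99923, then serum albumin 1 for LOC106605687 (0.99928) and the alpha-1-antitrypsin homolog LOC106608112 for LOC106577517 (0.99881). These values are a description, and the liver libraries lie apart from all others on this scale. The correlation exceeded 0.99 for 398 of 37041 other genes with LOC106605687 and for 395 with LOC106577517.

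Both genes lie between an apolipoprotein C-I gene and an apolipoprotein C-II gene, all on the same strand. Read in the direction of transcription, the order on chromosome 5 is apolipoprotein Eb-like (LOC106605689), apolipoprotein C-I (apoc1), the uncharacterized LOC106605688, LOC106605687, apolipoprotein C-II-like (LOC106605686) and trypsinogen-like protein 3 (LOC106605684). On chromosome 2 it is apolipoprotein Eb-like (LOC106577506), apolipoprotein C-I-like (LOC106577511), LOC106577517, apolipoprotein C-II-like (LOC106577525) and trypsinogen-like protein 3 (LOC106577547). Farther upstream the chromosome 5 cluster holds 2 apolipoprotein A-IV-like genes, and the chromosome 2 cluster holds 1 such gene and an A-I-like gene. The C-I gene ends 4.54 kb before LOC106605687 and 5.31 kb before LOC106577517. The C-II-like gene begins 10.6 kb after LOC106605687 and 24.7 kb after LOC106577517. The annotation of Ssal_v3.1 keeps the same protein-coding neighbours around both genes.

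Within 100 kb of the 2 genes lie 22 other annotated genes, of which 18 passed the filter on low counts. Of these, 9 were called higher in the liver than in each of the other 3 tissues (50%), against 5.8% of all genes tested. Around LOC106605687 it was 6 of 9 tested genes, and around LOC106577517 it was 3 of 9. No gene of either window was called lower in the liver than in all other tissues. Such genes are few in any case, with 1709 of all 37043 genes tested. The windows hold 10 apolipoprotein genes, of which 6 were liver-specific by this rule, and 3 of 8 other tested genes were. Over the whole genome, 39 genes were listed as apolipoproteins, including an ice-structuring protein gene (LOC106605287), from a family related to apolipoproteins. LOC106605287 was added because the paper lists it under lipid transport among its liver-specific genes. That list was drawn from these same libraries, so the call of LOC106605287 was known beforehand. Of the 39 genes, 28 were tested and 15 called liver-specific, with 9 of 18 outside the 2 windows. Both counts of calls include LOC106605287. Highest of those outside in liver FPKM were the A-I genes LOC100136573 and apoa1 (13729 ± 2644 FPKM) and LOC106605287 (11268 ± 1044 FPKM). The smallest of the 3 liver log2 fold changes had a median of 3.78 over the tested apolipoprotein genes and of -1.66 over all genes tested. The windows and this list were chosen knowing that the genes lie beside abundant apolipoproteins.

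**Figure D4:**
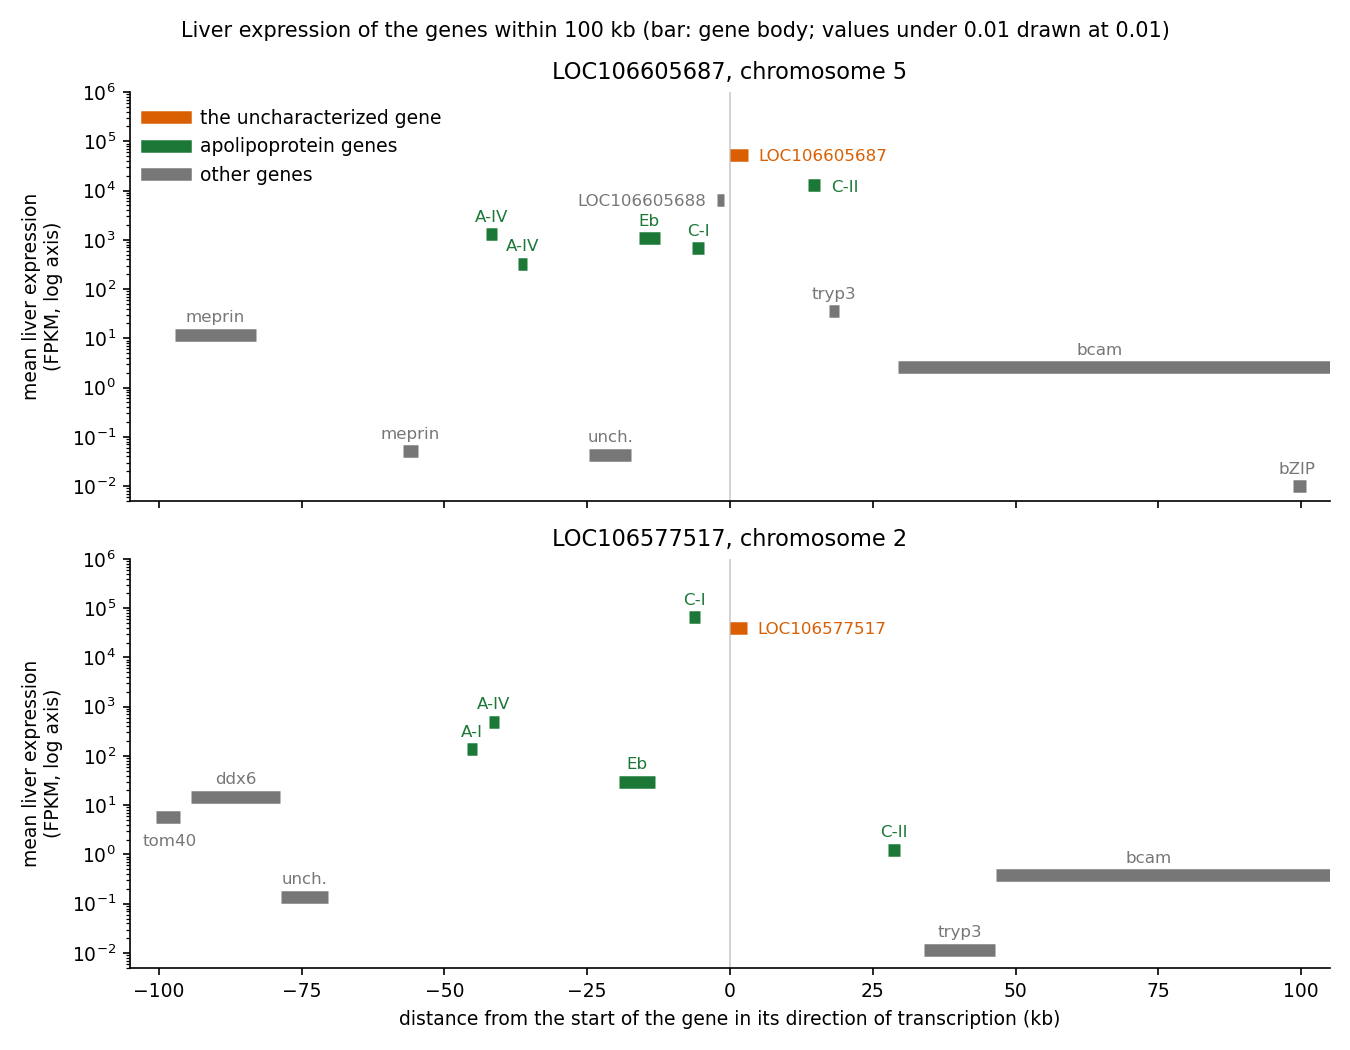
Mean liver FPKM, on a log axis, of the genes within 100 kb of LOC106605687 (top) and LOC106577517 (bottom), each drawn as a bar over its gene body at its distance in kb from the start of the uncharacterized gene. In both panels the uncharacterized gene stands near 0 kb among the highest bars, with C-I and Eb to its left and C-II to its right, but C-II is high only in the top panel and C-I is highest in the bottom one.

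The nearest gene to LOC106605687 is also uncharacterized and was abundant in the liver. LOC106605688 (67846123 to 67847435) ends 1.03 kb before it and had 4240, 5413, 5973 and 5073 CPM in the liver. Its highest level elsewhere was 4.19 CPM, in brain replicate 1. It was called liver-specific, with log2 fold changes of 10.96 over brain (standard error 0.56, adjusted p = 9.72e-11, edgeR), 11.68 over pituitary gland (0.57, adjusted p = 7.61e-11, edgeR) and 10.82 over ovary (0.55, adjusted p = 4.91e-11, edgeR). It has 4 exons and no annotated reading frame, and the later annotation calls it a long noncoding RNA. Its exon 2 measures 46 bases and its first intron 279 bases, against 45 and 279 bases in LOC106605687. No such gene is annotated between LOC106577511 and LOC106577517.

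Apolipoprotein C-I genes differed between the clusters. In mammals this small protein inhibits the binding of lipoproteins to their receptors. On chromosome 2, LOC106577511 had 49771, 42096, 37245 and 38271 CPM in the liver, and 1623, 1041, 1127 and 1010 CPM in the pituitary gland. It was called liver-specific, and the smallest log2 fold change was that of liver over pituitary gland (5.12, edgeR adjusted p = 1.23e-08, standard error 0.39). Outside the liver it passed for pituitary gland over ovary (5.20, 0.39, adjusted p = 5.85e-09, edgeR) and for brain over ovary (3.49, 0.36, adjusted p = 2.14e-07, edgeR). On chromosome 5, apoc1 had 583, 357, 544 and 297 CPM in the liver, against 316, 243, 270 and 187 CPM in the pituitary gland. The groups overlapped, and the difference did not pass (0.81, standard error 0.33, adjusted p = 0.0434, edgeR). In FPKM, the chromosome 2 copy was 96.8 times the chromosome 5 copy in the liver, 24.8 times in the brain, 4.87 times in the pituitary gland and 51.5 times in the ovary.

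On the downstream side the difference ran the other way. The C-II-like gene of chromosome 5, LOC106605686, had 120649 to 137564 reads and 11449 ± 611 CPM in the liver, rank 13 in liver FPKM. It was at 5.61 ± 3.82 CPM in the brain, 6.05 ± 0.375 CPM in the ovary and 2.91 ± 0.251 CPM in the pituitary gland, and was called liver-specific (smallest log2 fold change 10.89, over ovary, standard error 0.67, adjusted p = 3.86e-10, edgeR). Its counterpart on chromosome 2, LOC106577525, had 7, 17, 17 and 12 reads in the liver. It had 0, 164, 1 and 0 reads in the brain and 0 in each pituitary gland and ovary library, which allows up to 0.124 CPM in the smallest of these libraries. In mean liver FPKM the chromosome 5 gene was 10113 times the chromosome 2 gene. Trypsinogen-like protein 3, which lies beyond C-II, had 231 to 509 liver reads on chromosome 5 and at most 1 liver read on chromosome 2.

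The apolipoprotein Eb-like genes of both clusters were not called liver-specific. In mammals apolipoprotein E is made by the liver and also by glia and macrophages. LOC106605689 on chromosome 5 had 1448, 2343, 2987 and 1582 CPM in the liver, against 129, 88.5, 4437 and 3161 CPM in the brain, where replicates 3 and 4 stood far above replicates 1 and 2. Liver over brain did not pass the test (log2 fold change 0.10, edgeR adjusted p = 0.923, standard error 0.81). LOC106577506 on chromosome 2 had 475, 888, 661 and 518 reads in the liver and 1016, 4337, 41817 and 32071 reads in the brain, with the same brain libraries high. Neither uncharacterized gene had this brain pattern. Both Eb-like genes passed for brain over ovary, with log2 fold changes of 7.68 (standard error 1.09, adjusted p = 7.22e-06, edgeR) and 7.98 (1.08, adjusted p = 4.49e-06, edgeR). They also passed for pituitary gland over ovary, with 6.09 (1.01, adjusted p = 4.4e-05, edgeR) and 5.78 (0.98, adjusted p = 5.56e-05, edgeR).

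Among the A-type apolipoproteins farther upstream, all 4 were called liver-specific. On chromosome 5, the A-IV-like genes LOC106605692 and LOC106605691 were at 1478 ± 279 and 379 ± 62.4 CPM in the liver. On chromosome 2, the A-IV-like gene LOC106577505 was at 603 ± 283 CPM and the A-I-like gene LOC106577499 at 154 ± 42.9 CPM. None of the 4 exceeded 4 CPM in any other library. In liver FPKM they ranged from 135 to 1301, far below the uncharacterized gene of their own cluster.

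Counterpart genes of the clusters were set side by side. In liver FPKM, chromosome 5 over chromosome 2, the ratio of means was 1.37 for the 2 genes, 10113 for C-II, 35.5 for Eb, 2.66 for the A-IV-like pair LOC106605692 and LOC106577505, and 0.0103 for C-I. Of the pairs outside the lipid group, ddx6 (LOC106605696 and LOC106577487) had a ratio of 0.887, ribosomal protein S19 (LOC106605681 and rs19) 1.10 and the basal cell adhesion molecule-like genes 6.93, at low levels. For trypsinogen-like protein 3, with at most 1 liver read on chromosome 2, no ratio is given. By this ratio of means, the 2 uncharacterized genes differed less between the clusters than the C-I, C-II and Eb pairs. They differed more than ddx6 or ribosomal protein S19. The A-IV-like pairing is uncertain, because by order and strand LOC106577505 corresponds to LOC106605691. In the liver LOC106605691 was at 326 ± 53.6 FPKM, against 490 ± 230 FPKM for LOC106577505. The S19 copies varied widely, with a log2 ratio per liver library (0.1 added to each FPKM) of 0.135 ± 0.675. That of the 2 uncharacterized genes was 0.456 ± 0.0778. Chromosome 5 was higher in 2 liver libraries for S19 and in all 4 for the 2 genes. The genes were matched by product name and order, except the A-IV-like pair, which was matched by product name only. The matching was done after their values were seen, and their sequences were not compared. These ratios are given as a description.

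**Figure D5:**
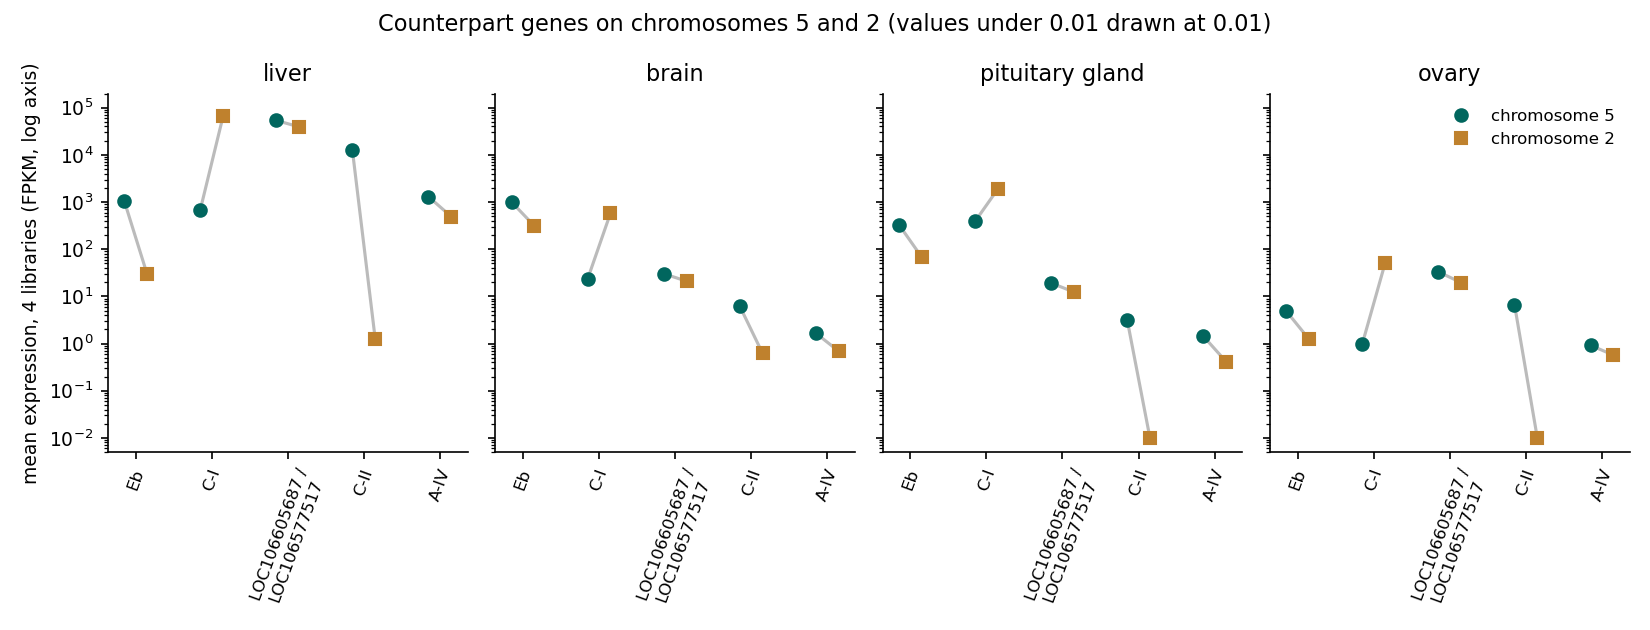
Mean FPKM, on a log axis, of counterpart genes on chromosome 5 (circles) and chromosome 2 (squares) in liver, brain, pituitary gland and ovary, from 4 libraries per tissue. The A-IV pair drawn is LOC106605692 and LOC106577505, matched by product name only. In the liver LOC106605687 and LOC106577517 lie close together at 53693 and 39205 FPKM, whereas the C-I pair lies at 679 and 65692 FPKM and the C-II pair at 12693 and 1.26 FPKM.

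The other genes of the windows were below 100 CPM in the liver. On chromosome 5, a meprin A subunit beta-like gene (LOC106605693), a secreted or membrane-bound metalloprotease subunit, was called liver-specific at 27.9 ± 15.9 CPM, and so was trypsinogen-like protein 3 at 31.1 ± 9.76 CPM. The basal cell adhesion molecule-like genes, which encode membrane proteins of the immunoglobulin family, were at 7.93 ± 3.44 CPM (LOC106605682) and 1.79 ± 0.458 CPM (LOC106577531) in the liver, against 103 ± 15.6 and 159 ± 22.0 CPM in the pituitary gland, where both were highest. Both passed for liver over pituitary gland, with log2 fold changes of -3.70 (standard error 0.39, adjusted p = 5.76e-07, edgeR) and -6.47 (0.58, adjusted p = 7.09e-08, edgeR). On chromosome 2, ddx6 (an RNA helicase, LOC106577487) and a TOM40 homolog (a pore of mitochondrial import, LOC106577478) were expressed in all tissues, at 74.8 ± 7.93 and 11.1 ± 1.48 CPM in the liver. The uncharacterized LOC106577497 was below 1 CPM in every library, and so were LOC106605690, a meprin-like gene (LOC106605674) and a leucine zipper gene (LOC106605683), the last with 0 reads in the liver.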

How the data were processed

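Per the paper's methods, the authors mapped quality-filtered reads to ICSASG_v2 with TopHat2 and counted unique reads on exons with HTSeq. The deposited table holds these raw counts, without normalization, for 81574 genes. The strand setting of the counting is not given in the sources used here. Gene positions, exons and products come from the annotation the authors deposited, whose position columns were used as given, and chromosome numbers from matching its gene IDs to RefSeq's Ssal_v3.1 table, where 44360 genes matched. A deposited centered table was not used. Counts ranged from 20.6 M to 51.9 M per library, and 3 counts were taken as the floor.

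TMM factors, filterByExpr, estimateDisp, glmQLFit and glmQLFTest of edgeR 4.0.16 (R 4.3.3) were run on all 16 libraries with 1 mean per tissue, over the 37043 genes that passed. Standard errors were derived from the log2 fold change and its F statistic. A gene was called liver-specific when it passed an adjusted p of 0.001 and a log2 fold change of 2 over each other tissue. FPKM used merged exon length. Tables and figures were made with Python 3.11.15, pandas 2.3.3 and matplotlib 3.10.9. The fit was tested on simulated data.

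Named genes are both members of the pair, all genes within 100 kb, the 5 apolipoprotein genes highest in the liver, the 2 genes next in liver FPKM on each side, the 3 most correlated genes and the 3 highest uncharacterized genes. LOC106605696, LOC106605681 and rs19 fall outside this rule and were added as counterparts after values were seen. The genes and lists were chosen with earlier results of these data known. Alternatives were DESeq2 1.42.0 (size factors and Wald test), plain library totals, other filters, windows and gene lengths, the replicate number as a block, and leaving out each library in turn.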

Additional observations from a re-analysis of the deposited data

Results flagged for a closer look

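In the liver, LOC106577517 was at 42838 CPM in replicate 1 and between 36099 and 36439 CPM in the other 3 libraries. The gap of replicate 1 to the next library was 0.9495 of the range of the 4 libraries, above the critical value of Dixon's test for 4 samples. The A-IV-like gene LOC106577505, 40.5 kb before it, was at 1022 CPM in liver replicate 2 and between 400.3 and 495 CPM in the others, a gap of 0.8476 of the range. These are 2 of 21 groups of 4 libraries screened, and chance alone gives about 1 in 20. They were different libraries. Leaving out liver replicate 1 and estimating the composition factors again put the mean of LOC106577517 at 37728 CPM, against 37912 CPM with all 4. The new factors also shift the scale: leaving out replicate 2, 3 or 4 instead gave 40141, 40104 and 40021 CPM.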

How the results depend on the processing

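Scaling to plain library totals gave 25409 and 19549 CPM for LOC106605687 and LOC106577517 in the liver, smallest liver log2 fold changes of 9.18 and 9.45, and 1270 liver-specific genes over all genes, against 2149. Leaving out 1 library at a time, the liver level of LOC106605687 ranged from 47845 to 52555 CPM and that of LOC106577517 from 36760 to 40141 CPM, and the smallest liver log2 fold change from 10.48 to 10.68 and from 10.54 to 10.96. For brain over ovary the direction was not stable: the log2 fold change of LOC106605687 was 0.10 with DESeq2 size factors (0.0972) and with the DESeq2 Wald test (0.0977), and from -0.59 to 0.18 when 1 library was left out, with 0.18 without brain replicate 2; that of LOC106577517 was -0.0389 with the replicate block and from -0.44 to 0.43 when 1 library was left out, with -0.44 without brain replicate 1. The cause was not tested. Over all alternatives, adjusted p-values of the pairs among brain, pituitary gland and ovary ranged from 0.00454 to 0.957, and none passed 0.001.

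The brain over pituitary gland and pituitary gland over ovary folds of both genes kept their direction under all alternatives run. Within 100 kb the count of neighbours called was 9 in all fits run except that without brain replicate 2, with 10. It was 7 of 16 tested among the 5 nearest genes on each side, 8 of 14 within 50 kb and 10 of 34 within 250 kb. The count of apolipoproteins was 13 with plain library totals, 14 with the filter on CPM, 16 with no filter, and between 15 and 16 when 1 library was left out. Calls of single neighbours were not recomputed one by one. Replicate numbers were not taken as pairs in the main fit, because the labels do not tie them to fish. Yet 42 of 48 comparisons were best with the own number, so same-numbered libraries may come from the same fish. Correlations of same-numbered libraries were low, from -0.0166 to 0.226, and 9 of 24 exceeded 0.1. With the replicate block 2144 genes were liver-specific. Brain levels of the 2 genes rest on 361 to 1717 reads per library. Their coefficient of variation between brain libraries was 65.2% for LOC106605687 and 71.0% for LOC106577517, which limits any order among the low tissues.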

Other observations

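Downstream of LOC106577517 on chromosome 2, brain replicate 2 stood apart from the other brain libraries. It held 164 reads of the C-II-like gene LOC106577525 and 137 reads of trypsinogen-like protein 3 (LOC106577547), against 0, 1 and 0 reads of each in brain replicates 1, 3 and 4. The next gene, the basal cell adhesion molecule-like LOC106577531, had 11099 reads in this library, at 153 CPM, against 28.6, 31.96 and 26.4 CPM in brain replicates 1, 3 and 4, while the pituitary gland libraries lay between 139.7 and 190.9 CPM. Of the brain libraries, LOC106577517 itself was lowest in replicate 2, with 4.99 CPM. These libraries were singled out after their values were seen.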
